A study of Mus musculus with 6 samples.

Results

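The protein subunits of the signal recognition particle and the membrane-bound part of its receptor were followed in differentiating C2C12 cells after depletion of the long noncoding RNA H19. The 7 genes, Srp9, Srp14, Srp19, Srp54a, Srp68, Srp72 and Srprb, were taken by name from the array annotation, as every probe set that lists one of them. They correspond to 9 probe sets of 35556, and to 8 of the 21559 units tested, against 19938 genes with a probe set of their own in the whole table. Srp19 was chosen by its measured decrease and adjusted p in this same comparison, so its difference is a description and not an independent result. The others were taken because they belong to the same particle or its receptor.

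C2C12 is an established mouse myoblast line, one line with no other line for comparison, that exits the cell cycle and forms myotubes when serum is lowered. All 6 samples were of wild type cells that had been grown with 10% fetal bovine serum. Differentiation was started with 2% horse serum once the cells covered about 90% of the dish. On day 1 of differentiation cells were transfected with a control siRNA (3 samples) or an siRNA against mouse H19 (3 samples). Total RNA was taken 40 h later and hybridised to 1 Affymetrix whole-transcript array per sample. The siRNA sequences and the nature of the control siRNA are not given in the labels. No label says whether the triplicates came from separate cultures, and p-values therefore reflect a spread among samples that could be technical. Values are log2 expression per probe set, so a difference of 1 is a doubling. Differences are H19 siRNA minus control siRNA with 95% intervals from limma, and a unit was called at a Benjamini-Hochberg adjusted p under 0.05 over all units.

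The signal recognition particle is the ribonucleoprotein that brings ribosomes making secreted and membrane proteins to the endoplasmic reticulum. Its scaffold is the 7SL RNA. Srp9 and Srp14 form a heterodimer on the Alu domain of that RNA, which slows elongation, and Srp19, Srp54, Srp68 and Srp72 sit on the S domain. Srp19 binds the RNA early in assembly and opens the site for Srp54, the GTPase that recognises the signal sequence. The complex docks at a receptor made of a GTPase alpha subunit and Srprb, the beta subunit that anchors it in the membrane. Myoblasts depend on this route for receptors, fusion proteins and matrix proteins.

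One of the 7 genes could not be read on its own. Srp54 exists in mouse as Srp54a, Srp54b and Srp54c, and both probe sets that list Srp54a list all 3 names. The RefSeq promoter windows of the 3 copies are shown to let the copies be compared, since they carry the same run of 48 bases, in capitals, which 3 of 32851 promoter windows in the table hold. They lie on the plus strand of GRCm38.p6 at chr12:55080246-55080545 (Srp54a), chr12:55154854-55155153 (Srp54b) and chr12:55230127-55230426 (Srp54c).
Srp54a: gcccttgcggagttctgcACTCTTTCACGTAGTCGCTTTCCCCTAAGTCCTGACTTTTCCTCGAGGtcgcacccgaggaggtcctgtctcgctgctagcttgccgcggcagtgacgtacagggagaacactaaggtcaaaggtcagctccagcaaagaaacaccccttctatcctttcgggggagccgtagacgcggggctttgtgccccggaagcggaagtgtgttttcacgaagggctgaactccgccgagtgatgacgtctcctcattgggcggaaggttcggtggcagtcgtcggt
Srp54b: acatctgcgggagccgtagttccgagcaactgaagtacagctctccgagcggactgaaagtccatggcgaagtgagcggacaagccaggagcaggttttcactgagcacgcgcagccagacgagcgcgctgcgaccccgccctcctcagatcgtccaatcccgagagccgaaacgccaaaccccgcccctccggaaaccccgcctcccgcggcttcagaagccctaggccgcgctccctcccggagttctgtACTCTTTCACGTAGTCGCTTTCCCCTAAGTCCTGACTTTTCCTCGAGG
Srp54c: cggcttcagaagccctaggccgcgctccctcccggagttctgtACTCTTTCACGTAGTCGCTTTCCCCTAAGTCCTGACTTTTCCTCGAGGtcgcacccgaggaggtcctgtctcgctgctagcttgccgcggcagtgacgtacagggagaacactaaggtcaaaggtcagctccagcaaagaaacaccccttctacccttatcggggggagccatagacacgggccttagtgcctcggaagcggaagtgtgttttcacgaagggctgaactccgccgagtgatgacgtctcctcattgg
The run lies at positions 19 to 66 of the Srp54a window, 44 to 91 of the Srp54c window and 253 to 300 of the Srp54b window. The longest run shared by Srp54a and Srp54c was 153 bases and that shared by Srp54b and Srp54c was 91 bases. The windows differ in where the annotated start falls, and they do not contain the array's probes, which were not used here. Below, Srp54 means the sum of whatever these copies contribute.

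Before the results, the arrays were checked against their labels. H19 has no probe set under its own name, and one that lists Mir675, which lies in the H19 gene, together with Supt6 stands in for it. With H19 siRNA it was at 26.9% of its control level (limma adjusted p = 1.80e-05). The probe set listed under Supt6 alone was at 95.7% of its control level (limma adjusted p = 0.594). How much each gene adds to the shared probe set was not tested. All 10 muscle markers chosen for the check, such as Des, Myod1 and Myog, lay above the median of all values. Of the 21 markers of leukocytes, endothelium, adipocytes, neurons and glia with a probe set of their own, Cd68 was the only one above that median, and 0 were called in limma (2 had an unadjusted p under 0.05). The 10 muscle markers averaged 11.33 to 11.35 per control array and 11.44 to 11.49 per H19 siRNA array, with 0 called, 6 at an unadjusted p under 0.05 and 7 with all H19 siRNA arrays above all control arrays. Over all units 0.199% were called, 10.9% had an unadjusted p under 0.05 and 17.6% had groups that did not overlap in either direction. The part of the muscle markers in the values below was not tested.

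Srp19 was lower with H19 siRNA while the units of the other members were at 98.5% to 101.9% of their control level. Its 3 control arrays read 8.86, 8.92 and 8.83, and its 3 H19 siRNA arrays read 8.47, 8.43 and 8.39. Every H19 siRNA array lay below every control array, and the gap between the groups was several times the spread within either. The means were 8.87 ± 0.04 and 8.43 ± 0.04 (SD, n = 3 each). On the log2 scale that is a difference of -0.44 (SE 0.04, 95% interval -0.53 to -0.34), which leaves 73.8% of the control level. These are the values by which the gene was chosen. In RNA of whole cultures, fewer cells with the transcript and less of it per cell cannot be told apart. In limma its adjusted p was 0.0207, and it was among the 16 units called lower, 0.0742% of those tested. The call was kept in 8 of 16 alternative runs. The lost calls included those with each of the 6 arrays left out (adjusted p from 0.0585 to 0.127) and with all 35556 rows tested (0.0788). The last section gives all of them. The difference stayed between -0.46 and -0.42 in every alternative run.

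Among the other 6 members 0 were called in limma and 0 had an unadjusted p under 0.05, and the array values of the 2 groups overlapped for all 7 of their units. Over all 21559 units these shares were 0.199%, 10.9% and, for groups that did not overlap, 17.6%. The counts for so few members lie near this background and are not read as a result about them. The 7 units differed by between -0.021 and 0.028 on the log2 scale, 3 above and 4 below 0. The median of the 6 members was -0.0027, beside 0.014 over all units. Over the 12264 units kept by a filter at the median of all values, the median difference was 0.003. Their 95% intervals together ran from -0.10 to 0.13, and each included 0. The interval of Srp19 lay lower, but Srp19 was chosen for its decrease, so that gap is only a description. All 9 probe sets had a mean above the median of all values, and none was lost to a filter on dim probe sets.

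**Figure D1:**
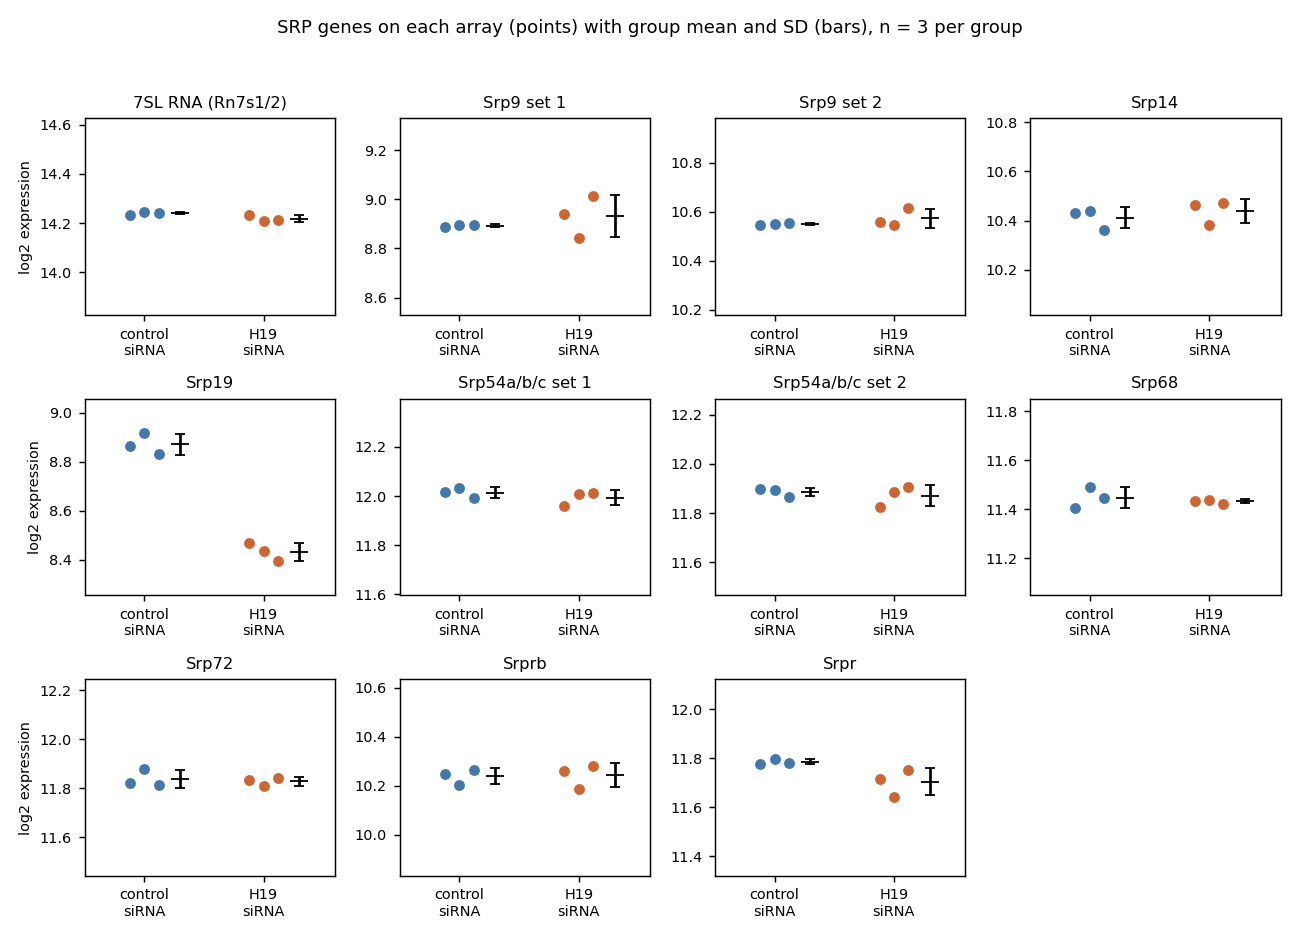
Log2 expression of each probe set on the 6 arrays, with control siRNA in blue and H19 siRNA in orange, points for single arrays and bars for the group mean ± SD (n = 3 each). Every panel spans the same range of log2 units, and the 2 groups are apart by more than their spread for Srp19, whose means are 8.87 and 8.43. For Srpr too, all H19 siRNA arrays lie below all control arrays, with a difference of -0.082.

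The particle's RNA and its Alu-domain proteins differed by 0.041 or less in size. The 7SL RNA is represented by the 2 probe sets listed under Rn7s1 and Rn7s2, whose values were identical on all 6 arrays and count as 1 measurement. They read 14.23, 14.24 and 14.24 with control siRNA and 14.23, 14.21 and 14.21 with H19 siRNA. The difference was -0.022 (95% interval -0.096 to 0.051, limma adjusted p = 0.837), at a level close to the highest value of the whole table, 14.62, and whether so bright a probe set can respond was not tested.

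Srp9, the smaller partner of the Alu-domain pair, has 2 probe sets. The brighter read 10.55, 10.55 and 10.55 with control siRNA and 10.56, 10.54 and 10.62 with H19 siRNA, a difference of 0.023 (95% interval -0.059 to 0.11). The dimmer read 8.89, 8.89 and 8.90 against 8.94, 8.84 and 9.01, a difference of 0.041 (-0.085 to 0.17) in the fit over all rows. In both probe sets the 3 control arrays were nearly equal, with an SD of 0.0035 and 0.0060, and the H19 siRNA arrays scattered around them, with SDs of 0.038 and 0.086. The third H19 siRNA array was the highest and the second the lowest in both. Srp14, the larger partner, read 10.43, 10.44 and 10.36 with control siRNA and 10.46, 10.38 and 10.47 with H19 siRNA. It differed by 0.028 (95% interval -0.071 to 0.13, limma adjusted p = 0.852), and its second H19 siRNA array was again the lowest of the 3.

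On the S domain, where Srp19 itself binds, its neighbours in the particle differed by 0.021 or less in size. Srp54, the signal-sequence GTPase that enters after Srp19, read 12.02, 12.03 and 11.99 with control siRNA and 11.96, 12.01 and 12.01 with H19 siRNA on one probe set, a difference of -0.021 (95% interval -0.10 to 0.061). The other read 11.90, 11.89 and 11.87 against 11.82, 11.88 and 11.91, a difference of -0.015 (-0.10 to 0.072). On both, the first H19 siRNA array was the lowest of all 6 and the rest were interleaved. A change in 1 of the 3 copies that the others mask would not be visible here.

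Srp68 and Srp72 form the other heterodimer of the S domain. Srp68, the partner that bends the RNA, read 11.41, 11.49 and 11.44 with control siRNA and 11.44, 11.44 and 11.42 with H19 siRNA. The H19 siRNA values fell inside the control range, with a difference of -0.015 (95% interval -0.10 to 0.069, limma adjusted p = 0.905). Srp72 read 11.82, 11.88 and 11.81 against 11.83, 11.81 and 11.84, a difference of -0.0085 (-0.092 to 0.075, limma adjusted p = 0.952). For both genes the second control array was the highest of all 6, as it also was for Srp19.

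Of the receptor subunits, Srprb, the membrane anchor, read 10.25, 10.20 and 10.27 with control siRNA and 10.26, 10.19 and 10.28 with H19 siRNA, a difference of 0.0032 (95% interval -0.092 to 0.098, limma adjusted p = 0.985). In both groups the second array was the lowest and the third the highest. Srpr, the alpha subunit whose GTPase pairs with that of Srp54, is not one of the 7 genes. It read 11.78, 11.80 and 11.78 with control siRNA and 11.71, 11.64 and 11.75 with H19 siRNA, so every H19 siRNA array lay lower. Its difference of -0.082 (95% interval -0.17 to 0.010) was not called in limma (adjusted p = 0.510).

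**Figure D2:**
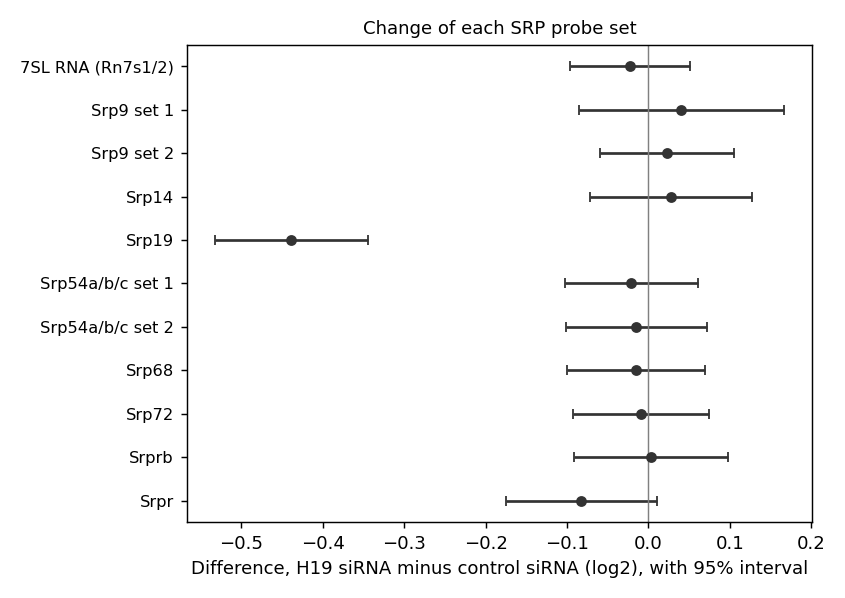
Difference between H19 siRNA and control siRNA on the log2 scale for each probe set of the particle and its receptor, with 95% intervals from limma over 3 arrays per group. The interval of Srp19 runs from -0.53 to -0.34 and all others include 0.

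Measured against the other 6 members, which include the receptor subunit Srprb, Srp19 shifted by about as much as its log2 value alone. Its log2 value minus the mean of the other 6 members was -2.21, -2.17 and -2.23 with control siRNA and -2.60, -2.62 and -2.71 with H19 siRNA. Because probe sets differ in how strongly they hybridise, only the change of this value can be read, not its level. The group means differed by -0.44, with SDs of 0.03 and 0.06 (n = 3 each). No test was made of this difference, since Srp19 was chosen for its decrease.

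Genes on either side of the members on the chromosome were read from the RefSeq order of genes. Apc and Reep5, a tumour suppressor and an endoplasmic reticulum shaping protein, lie on either side of Srp19. Apc read 10.40 ± 0.01 and 10.38 ± 0.02 (SD, n = 3 each) and differed by -0.027 (95% interval -0.10 to 0.047). Reep5 read 10.64 ± 0.02 and 10.69 ± 0.05 and differed by 0.047 (-0.042 to 0.14). For both genes the arrays of the 2 groups overlapped. Of the 12 neighbours of the other members 0 were called in limma and 2 had an unadjusted p under 0.05, both higher, Bmf beside Srp14 at 0.18 and Enah beside Srp9 at 0.085. The shares over all units were 0.199% and 10.9%.

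Other genes with an array pattern close to that of Srp19 were sought by Pearson's r over the 6 arrays. The 5 highest were Abca5 (r = 0.9945), Hsd11b1 (0.9942), Nceh1 (0.9931), Adgrl2 (0.9927) and Pla2g7 (0.9907), each with a Spearman's rho of 0.94. All 5 were lower on every H19 siRNA array, and with 2 separate groups r mostly restates that split, so no p is given. Hsd11b1, which activates glucocorticoids, differed by -0.50 and was called (limma adjusted p = 0.00995). The others differed by between -0.22 (Nceh1, a cholesterol ester hydrolase) and -0.078 (Abca5, a membrane transporter) and were not called.

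The rest of the targeting route was described from lists of genes with a probe set of their own. In the channel list (Sec61 subunits, TRAP, TRAM and lumenal chaperones) 0 of 14 genes were called, and 4 lay above and 10 below 0. The median difference was -0.024, beside 0.014 and 58.0% above 0 over all units. All 77 genes of the 6 pathway lists had a mean above the median of all values. Over the 12264 units kept by a filter at that median, the median difference was 0.003. Tram2, a translocon-associated protein linked to collagen synthesis, read 10.36, 10.32 and 10.32 with control siRNA and 10.16, 10.15 and 10.18 with H19 siRNA. All H19 siRNA arrays were lower, by -0.17 on average (95% interval -0.25 to -0.095, limma adjusted p = 0.139). The limma adjusted p was 0.0103 with robust variance and an intensity trend together, and 0.0348 with a filter at the median. Those settings called 435 of 21559 and 214 of 12264 units, against 43 in the main fit. No other alternative called Tram2. Tram1 (-0.079), Sec62 (-0.062) and Sec61b (-0.072), parts of the same channel assembly, were not called.

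Factors at the ribosome exit site, which meet the nascent chain before or beside the particle, had 0 of 10 called, with 7 above 0 and a median of 0.016. Nmt1, which adds myristate to nascent chains, differed by 0.098 (95% interval 0.024 to 0.17, limma adjusted p = 0.333, or 0.0178 with an intensity trend and robust variance). No other alternative called Nmt1. Btf3, the beta subunit of the nascent polypeptide-associated complex, differed by 0.075, Nmt2 by -0.062 and the acetyltransferase Naa50 by 0.050.

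For enzymes that act on the chain as it enters the lumen, the direction is a description and was not tested. Signal peptidase and signal peptide peptidase had 0 of 6 called, 2 above and 4 below 0, and a median of -0.031. Over all units 58% lay above 0. Spcs3, a signal peptidase subunit, differed by -0.12 (95% interval -0.20 to -0.041, limma adjusted p = 0.269, or 0.0405 with an intensity trend and robust variance). No other alternative called Spcs3. The catalytic subunits Sec11c and Sec11a differed by 0.097 and -0.069, and Spcs1 by -0.054. Oligosaccharyltransferase had 0 of 12 called, 3 above and 9 below 0, and a median of -0.025, with Ost4 at -0.12, Tusc3 at -0.095, Ostc at -0.089 and Krtcap2 at 0.051.

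The list named SRP-independent targeting holds the GET pathway for tail-anchored proteins, the membrane protein complex EMC and Tmem208. It had 0 of 16 called and a median of -0.0086, and which of its genes work apart from the particle was not tested. Emc7 differed by -0.097 and Tmem208 by -0.074, against 0.083 for the chaperone Sgta and 0.077 for Emc10. RNA polymerase III, its factors and La, which make and bind 7SL RNA, had 0 of 19 called and a median of 0.0011. Polr3k, a small subunit of that polymerase, read 9.18, 9.20 and 9.18 with control siRNA and 9.01, 8.96 and 9.01 with H19 siRNA. It was lower on all H19 siRNA arrays by -0.19 on average (95% interval -0.27 to -0.11, limma adjusted p = 0.111). The limma adjusted p was 0.0292 with robust variance and an intensity trend together, and 0.0253 with a filter at the median. No other alternative called Polr3k. In these 6 lists together, 0 of 77 genes were called in limma and 7 had an unadjusted p under 0.05, beside 0.199% and 10.9% of all units.

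**Figure D3:**
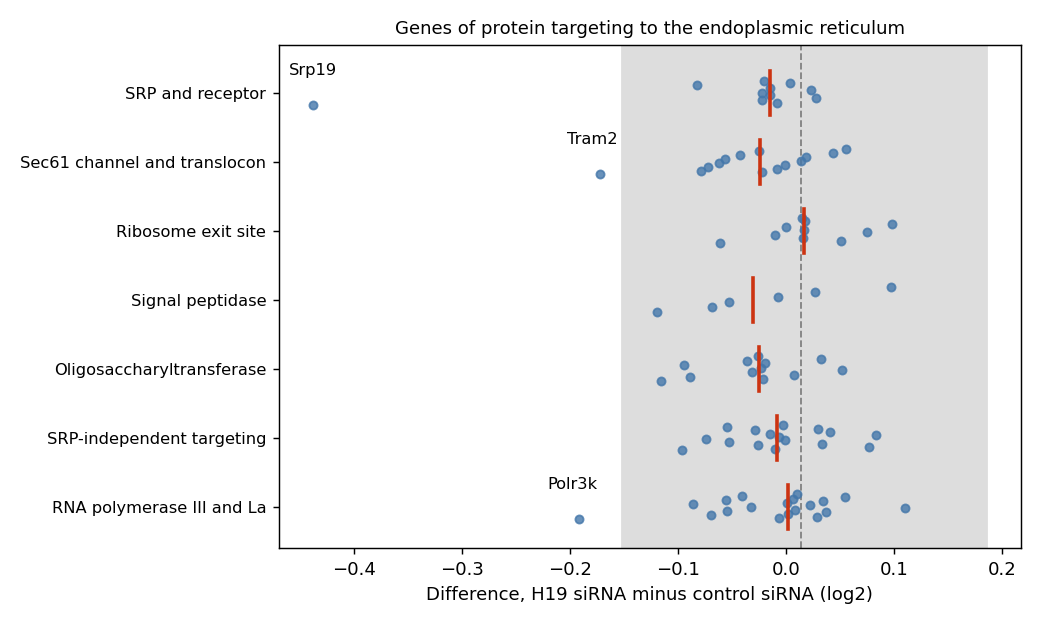
Difference between H19 siRNA and control siRNA on the log2 scale for each unit (points) of 7 lists, with the list median in red. The median of all units is a dashed line and the central 95% of all units (-0.15 to 0.19) is grey. In the SRP row, both Srp54 probe sets and both 7SL probe sets, which have identical values, are separate points and enter the median separately. Srp19 lies at -0.44, and the next farthest below the grey band are Polr3k at -0.19 and Tram2 at -0.17.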

How the data were processed

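RNA of 6 samples was measured on 6 arrays. The authors deposited log2 values per probe set, for which the submitters' processing notes name RMA and Affymetrix Expression Console. The version is not given in the sources used here. RMA corrects background, equalises array distributions by quantiles and summarises probes, which compresses differences near background. Array medians lay between 6.73 and 6.78. Pearson's r between arrays lay between 0.9958 and 0.9975, and no pair was identical. Detection calls and scanner files were not used here, and the number of arrays limits the precision.

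GEO's platform annotation gave the names: 21789 had 1 symbol, 1621 several and 12146 were not listed. The brightest probe set stood for a gene, and probe sets with several symbols stayed separate units. The second Srp9 probe set was tested only in the fit over all rows. Groups came from the sample titles. The comparison used limma 3.58.1 (lmFit, eBayes, R 4.3.3) with two-sided tests and no covariate or filter. The code was also run on simulated independent normal values, which checks the code and not whether the model holds for these arrays. Figures were drawn with matplotlib 3.10.9. With 3 arrays per group the smallest exact permutation p is 0.1, two-sided.

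The members and gene lists were chosen with earlier results of these data known, so lists are described by counts and medians with no test. Named were all members, the other genes of the particle and receptor, the 4 genes with the smallest p of each list and any called, the nearest gene with a probe set on each side of a member, and the 5 genes most like Srp19. Of 83 genes written in the 6 pathway lists, 77 had a probe set of their own. Probe sets shared with other genes were left out of these lists after the values were seen. Promoter sequences are RefSeq's for GRCm38.p6, and the authors' build is not given in the sources used here.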

Additional observations from a re-analysis of the deposited data

How the results depend on the processing

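In 16 alternatives 0 of the other members tested were called (Srp54 was not tested with probe sets of 1 symbol only), and their units stayed between -0.044 and 0.056. Srp19 was lower in all 16 and called in 8. The lost calls were those with all rows tested (-0.44, adjusted p = 0.0788), in the fit with a replicate block (-0.44, adjusted p = 0.204) and without 1 array, where the difference ran from -0.46 to -0.42 and the adjusted p from 0.0585 to 0.127, with fewer samples. Of 21559 units 43 were called, against 435 with an intensity trend and robust variance, 70 with array weights and 3 with the replicate block. A filter at the 30th percentile gave 75 of 16401, one at the median 214 of 12264 and all rows 11 of 35556. Without 1 array, between 1 and 21 of 21559 were called. The share of calls that were higher was 62.8%. In alternatives that kept all arrays it ran from 52.8% with median centring to 70% with array weights. Without 1 array it ran from 0% to 66.7%, over few calls. Median centring moved the median difference of all units from 0.0137 to -0.0087. Replicate numbers gave no sign of pairing: deviations of same-numbered arrays correlated at -0.017, -0.13 and -0.14. So few arrays cannot settle whether those with the same number shared a culture or batch, and the labels do not say. Without detection calls no signal over background can be given.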
